A study of Mus musculus with 10 samples.

Results

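Translation factors and translation-associated genes were examined in the developing mouse neocortex, the layered outer part of the forebrain. The members were the genes that the authors' deposited table files under the category translation-associated, together with every gene whose name starts with Eif or Eef. The elongation factors Eef1a1 and Eef1a2, the Y-linked Eif2s3y, Pa2g4, the nascent chain factors Naca, Btf3, Metap1, Metap2, Naa10, Naa15 and Naa50 and the mitochondrial ribosomal proteins were left out. This gave 117 of the 6147 genes in the table, 74 through the category and 43 through the name alone. Polyadenylated RNA had been sequenced from neocortex lysates of wild-type CD1 mice, an outbred strain, before birth at E12.5, E14, E15.5 and E17 (embryonic days) and at birth (P0), with 2 biological replicate libraries a stage, 10 together. No stage carried a mutation or a treatment. The sources used here do not give how many animals, or of which sex, went into a library. Values are TPM, the share of a gene's transcripts in a library, corrected for gene length and scaled to a fixed total. The spread given after a mean is the SD over the 2 libraries of a stage (n = 2). Differences are on the log2(TPM + 1) scale, which understates changes of low genes.

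Translation of an mRNA begins when initiation factors load the small ribosomal subunit with the initiator tRNA, bring it to the capped 5′ end and let it scan to the start codon. Elongation factors then deliver tRNAs and move the ribosome along, and repressor proteins, microRNA complexes and deadenylases hold individual mRNAs back. In the developing cortex, dividing progenitors and young neurons draw on the same machinery, and control of translation is known to shape which proteins a neuron makes.

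Some mRNAs of the translation machinery start with a C followed by an unbroken run of C and T bases, the terminal oligopyrimidine (TOP) motif, through which growth signals act on their translation. The annotated transcript starts of RefSeq (GRCm38.p6) were searched on the transcribed strand for a C at the start followed by at least 4 C or T bases; 95 of the 117 members matched a RefSeq start by name. A run was present at any start of 5 of the 95 (5.26%), against 3.16% of the 4968 listed genes that matched. Among the ribosomal protein genes in the table, the best known carriers of the motif, it was 22% (11 of the 50 that matched). Counted over single starts rather than genes, a run was present at 2.51% of all 32851. That share is not like the others, because a gene can have several starts. Of the 5 members with a run, Paip1 and Cnot8 also have annotated starts without one. The 5 are shown with 10 bases before the start and 20 from it on, with the run in capitals, and below them the starts of the helicase pair Eif4a1 and Eif4a2, which carry no such run and whose levels moved apart.
Eif3f: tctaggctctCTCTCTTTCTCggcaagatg
Eif2s3x: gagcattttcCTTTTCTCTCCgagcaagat
Paip1: cagtctcgcaCTTTTCTCCggagggaccag
Cnot8: ggctacggggCTCTCggtccccggagtcca
Cnot10: agtagcgtctCCCTTggccgctacgggacg
Eif4a1: gtaacgtcacgtcgagttgcagagcgccgg
Eif4a2: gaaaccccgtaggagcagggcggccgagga
These windows lie at chr7:108934405-108934434 (plus strand), chrX:94212632-94212661 (minus strand), chr13:119428590-119428619 (plus strand), chr11:58104299-58104328 (plus strand), chr9:114640181-114640210 (minus strand), chr11:69672404-69672433 (minus strand) and chr16:23107458-23107487 (plus strand). A start that is annotated a few bases away from the one used would be missed by this search. With a run found in 22% of the ribosomal protein genes, the genes without a run can include carriers of the motif. The comparison that follows therefore does not separate carriers from other genes. From E12.5 to P0, 3 of the 5 members with a run were lower (Eif2s3x, Paip1 and Cnot10), with a median difference of -0.45. Eif3f and Cnot8 were not called. Of the 89 tested members without a run, 62 were lower and 9 higher, with a median of -0.54. Among all tested listed genes with a run, members included, 65 were lower and 51 higher, with a median of -0.14. Of the 4735 tested listed genes without one, 2456 were lower and 1254 higher, with a median of -0.28. In both classes the members' median thus lay below that of the listed genes, with only 5 members in the class with a run.

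The libraries were checked for what they contain. Progenitor markers in the table (5 of 8 listed, among them Pax6 and Sox2) summed to 1221 to 1298 TPM at E12.5 and 187 to 193 TPM at P0, and neuronal markers (7 of 8, among them Tubb3 and Tbr1) to 2335 to 2367 TPM at E12.5 and 4597 to 5377 TPM at P0, so markers of both cell classes of the labelled tissue were present. Blood (2 of 9 in the table, both embryonic globins) summed to 4318 to 4490.3 TPM at E12.5 and 1878 to 1973 TPM at E14, and lay between 1.88 and 9.12 TPM in the later libraries. Meningeal markers (5 of 5, among them Col1a1 and Lum) summed to 173 TPM at E12.5 and 106 to 111 TPM at E14 and to at most 6.63 TPM later, and the choroid plexus marker Ttr (1 of 4) was at 293 to 438 TPM at E12.5 and 1379 to 1491 TPM at E14 and at most 5.14 TPM later. The microglial marker C1qb (1 of 6) stayed between 4.66 and 8.93 TPM, and 0 of 5 vessel markers were in the table. The part of this shift in cell makeup in the results below was not tested; in bulk tissue, fewer cells of a type and less RNA per cell cannot be told apart. The 2 libraries of E17 differed more than those of other stages: over the members, the log2 values of replicate 1 minus those of replicate 2 had an SD of 0.307 there and of 0.0713 to 0.155 at the other stages.

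Together the members held 2.16% and 2.20% of all TPM in the 2 libraries of E12.5 and 1.77% and 1.79% at P0. The most abundant were Eef2, the factor that moves the ribosome by one codon, at a mean of 1523 TPM over the 10 libraries, Eif1 (1405), Eif5a (1365), Eif4a1 (822) and Eif1ax (752). Mapkapk5, a protein kinase, was the only member below a mean of 1 TPM (0.266 to 0.854 TPM) and was not tested, which leaves 116. On the GENCODE M21 models, 56.5% of its exonic bases overlap exons of other genes on the same strand.

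Most members were lower at birth than at E12.5. In limma's test, 81 of 116 had an adjusted p under 0.05 and lay lower at P0 (69.8%), where 51% of all 6048 tested genes did, and 9 lay higher (7.76%), where 27.1% of all genes did. In each of the 90 called members, both P0 libraries lay on the called side of both E12.5 libraries. The calls rest on these same libraries, and the separation was not counted over all genes, so it adds no support. Without E17 replicate 1, 86 were lower and 9 higher, beside 55.1% and 29.7% of all genes. A difference of at least 1 on the log2 scale was called lower in 16 members (13.8%, beside 20% of all genes) and higher in 3 (2.59%, beside 11.1%). The median difference was -0.53 over the members and -0.27 over all tested genes. Because TPM are shares, this balance depends on the scaling. With median-of-ratios scaling, which moves the median of all genes to -0.01, 60 members were lower and 21 higher, beside 37.7% and 37.9% of all genes, and the members' median was -0.25. With quantile normalization 71 were lower and 12 higher, beside 40% and 36.6%, with a median of -0.34. Over the 5 stages together, limma's F test called 96 of 116 members (82.8%), where it called 82.9% of all genes. That count was 88 with median-of-ratios scaling (82.6% of all genes), 92 with quantile normalization (83.9%), 106 without E17 replicate 1 (91.1%) and 107 without E17 replicate 2 (94.4%).

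**Figure D1:**
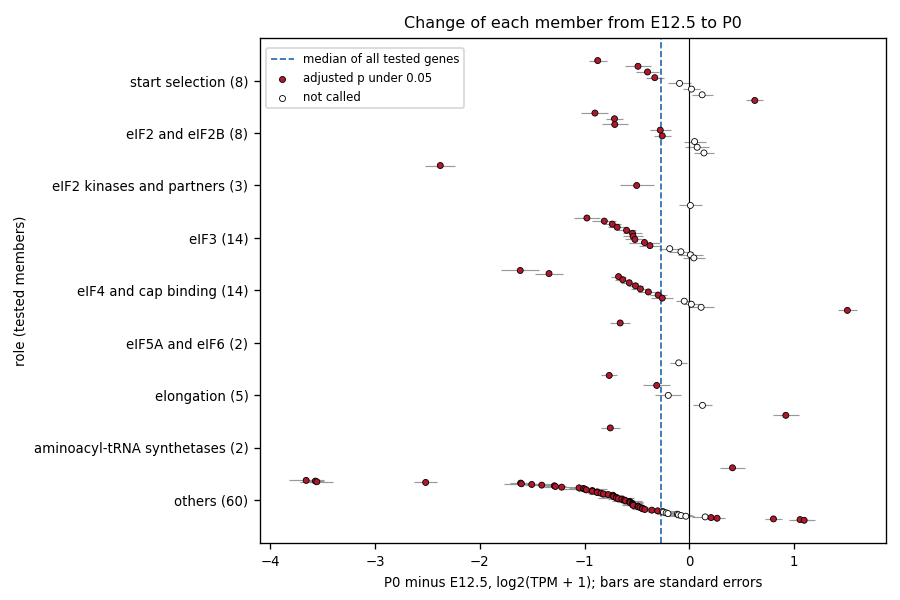
Difference between P0 and E12.5 on the log2(TPM + 1) scale (x axis) for the 116 tested members, grouped by role (y axis, number of members in brackets); points are estimates from 2 libraries per stage, bars are standard errors, filled points have an adjusted p under 0.05 and the dashed line is the median of all tested genes (-0.27). Eif4a2 stands alone at the right of the eIF4 group at 1.51, and the 4 lowest points among the others are Igf2bp1, Tyms, Igf2bp2 and Igf2bp3.

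Among the factors that choose the start codon, 4 of 8 were lower at P0, 1 was higher and 3 were not called, with a median of -0.21. All genes had 51% lower, 27.1% higher and a median of -0.27, against which this and the following groups are to be read. Eif1ad, which carries an eIF1A-like domain, fell by 45.8% of its E12.5 level, with 139 and 143 TPM at E12.5, 122 and 125.2 at E14, 91.2 and 79.95 at E15.5, 78.7 and 69.5 at E17 and 77.5 and 75.6 at P0; its difference was -0.87 (SE 0.09, adjusted p 2.32e-06). Both libraries of E15.5 already lay below all of those of E12.5 and E14. Eif1b, a close relative of the start codon gatekeeper Eif1, went the other way, with 449 and 433 TPM at E12.5, 435 and 454 at E14, 495 and 470.4 at E15.5, 597 and 572 at E17 and 715 and 646 at P0, a difference of 0.62 (SE 0.08, adjusted p 1.82e-05). Eif1 itself lay between 1325 and 1449.9 TPM in all libraries (difference 0.020, adjusted p 0.826), and was called higher only with median-of-ratios scaling (0.30). The Eif1b to Eif1 ratio of TPM was 0.322 and 0.304 at E12.5, 0.305 and 0.313 at E14, 0.353 and 0.337 at E15.5, 0.450 and 0.414 at E17 and 0.4998 and 0.453 at P0. A ratio within a library does not depend on a scaling factor per library. In an exact two-sided permutation test, which sets the spread within stages against that of all 945 pairings of the libraries, it gave p = 0.00423, adjusted 0.00705 over 5 ratios. The smallest p this test can give is 0.00106. Of the 50-base words of Eif1 transcripts, 21.4% also occur in transcripts of other genes, against 0% for Eif1b. Exons on the other strand overlap 12.7% of the exonic bases of Eif1b. How such reads were counted is not given, so the level of the ratio is uncertain. Eif1ax, the X-linked eIF1A gene, had 845 and 809.9 TPM at E12.5, 727 and 751 at E14, 639.6 and 651 at E15.5, 587 and 700.3 at E17 and 843 and 963 at P0. Its E12.5 and P0 libraries overlapped (0.12, adjusted p 0.274, and 0.40, called, with median-of-ratios scaling), while from E17 to P0 it rose by 0.49 (SE 0.10, adjusted p 0.00296), and 0.36 without E17 replicate 1 (adjusted p 0.0021). Eif5, which triggers GTP hydrolysis by eIF2, fell by 0.33 on the log2 scale, Eif5b, the GTPase that joins the subunits, by 0.49, and Eif2d, a factor for non-canonical initiation and recycling, by 0.40. Under median-of-ratios scaling these 3 were no longer called (-0.054, -0.22 and -0.13). Eif2a, which can deliver initiator tRNA in place of eIF2, was at -0.093 (adjusted p 0.437).

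Of the 8 genes of eIF2, the GTPase that carries the initiator tRNA, and its exchange factor eIF2B, 5 were lower at P0 and 3 were not called (median -0.27). Eif2s1, the alpha subunit that stress kinases phosphorylate, fell from 154 ± 4.10 to 82.8 ± 13.2 TPM, with 157 and 152 TPM at E12.5, 132 and 134 at E14, 109 and 112 at E15.5, 75.7 and 100.6 at E17 and 73.4 and 92.1 at P0. Its difference was -0.90 (SE 0.13, adjusted p 5.03e-05). Eif2s3x, the X-linked gamma subunit, fell from 86.8 ± 3.47 to 53.3 ± 12.2 TPM (-0.71, SE 0.12, adjusted p 0.000228). Eif2s2, the beta subunit, had 163 and 156 TPM at E12.5, 151 and 141 at E14, 143 and 137 at E15.5, 108 and 139.8 at E17 and 156 and 180.3 at P0; P0 and E12.5 overlapped (0.075, adjusted p 0.558, and 0.35, called, with median-of-ratios scaling). It rose from E17 to P0 by 0.45 (adjusted p 0.00974), or 0.26 without E17 replicate 1 and 0.63 without the other. The 5 subunits of eIF2B, which recharges eIF2 with GTP, lay between 10.5 TPM (Eif2b3) and 60.7 TPM (Eif2b5) over all libraries. Eif2b2 fell (-0.71, SE 0.08, adjusted p 7.55e-06), with 58.6 and 59.6 TPM at E12.5, 53.8 and 53.6 at E14, 44.6 and 43.2 at E15.5, 34.7 and 36.7 at E17 and 37.04 and 34.3 at P0. Smaller falls were called for the catalytic subunit Eif2b5 (-0.28, adjusted p 0.0256) and for Eif2b1 (-0.26, adjusted p 0.0105); neither was called under either rescaling or without E12.5 replicate 2, nor was Eif2b5 without either P0 library. Under median-of-ratios scaling they were at -0.0056 and 0.013. Eif2b3 (0.050) and Eif2b4 (0.14) were not called on TPM as deposited, and were called higher with median-of-ratios scaling (0.31 and 0.41) and with quantile normalization (0.43 and 0.43). Eif2b3 had a low point at E17: it had 14.95 and 13.8 TPM at E15.5, 10.5 and 10.8 at E17 and 14.5 and 15.2 at P0, and both steps were called (-0.40 and 0.44).

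Of the genes that act on eIF2, Eif2ak2, the kinase PKR that double-stranded RNA activates, had the largest fall of any Eif or Eef gene among the members. It had 14.5 and 15.6 TPM at E12.5, 9.92 and 11.04 at E14, 4.15 and 4.03 at E15.5, 3.59 and 2.67 at E17 and 1.78 and 2.44 at P0. The difference from E12.5 to P0 was -2.38 (SE 0.14, adjusted p 2.62e-08), a fall of 86.0% in TPM, with its largest step between E14 and E15.5 (-1.17, SE 0.14, adjusted p 3.92e-05). Both libraries of each stage lay below both of the stage before it. The step from E15.5 to E17 was not called (-0.31, adjusted p 0.131) but was so without E17 replicate 1 (-0.47, adjusted p 0.011). The last step (-0.41) lost its call without E17 replicate 1 (adjusted p 0.131). Dnajc3, an inhibitor of PKR, fell less, with 36.7 and 32.7 TPM at E12.5, 29.6 and 31.6 at E14, 18.5 and 17.1 at E15.5, 23.1 and 21.7 at E17 and 15.9 and 16.5 at P0 (-1.05, SE 0.10, adjusted p 1.42e-06). Gcn1l1, a partner of the amino acid sensing kinase GCN2, was lower at P0 by 0.50 (adjusted p 0.0144), but not under either rescaling nor without any one of E12.5 replicate 2, P0 replicate 1 and P0 replicate 2; at E17 its libraries stood at 17.1 and 10.9 TPM. Impact, which counters Gcn1l1, was at 0.010 (adjusted p 0.934) and was called higher under both rescalings (0.28 and 0.27).

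The eIF3 complex, the largest initiation factor and the platform that holds the small subunit, was lower at P0 in most of its subunits. Of 14 genes tested, 10 were lower at P0 and 4 were not called, with a median of -0.53. The largest falls were those of Eif3a, a core subunit, with 108 and 107 TPM at E12.5, 90.1 and 89.9 at E14, 76.5 and 80.4 at E15.5, 63.6 and 69.5 at E17 and 45.4 and 63.9 at P0 (-0.98, SE 0.13, adjusted p 2.27e-05), of Eif3d, a cap-binding subunit, with 103 and 118 TPM at E12.5, 111 and 93.1 at E14, 95.04 and 96.3 at E15.5, 61.5 and 73.7 at E17 and 58.9 and 66.02 at P0 (-0.81, SE 0.11, adjusted p 4.59e-05), and of the core subunit Eif3b, with 107 and 119 TPM at E12.5, 98.1 and 89.2 at E14, 74.02 and 76.6 at E15.5, 58.3 and 62.2 at E17 and 65.5 and 69.3 at P0 (-0.74, SE 0.09, adjusted p 8.44e-06). In each of the 3 genes every P0 library lay below every E15.5 library. Eif3i, Eif3l, Eif3m, Eif3g and Eif3c were lower by between 0.52 and 0.69. Eif3j1 and Eif3j2, copies of the loosely bound subunit, were lower by 0.43 and 0.38, but 91.8% of the 50-base words of the Eif3j2 transcripts also occur in transcripts of other genes, 90.8% in Eif3j1, so reads of the pair may have been split or lost in counting and both values are uncertain. Both calls were lost without E12.5 replicate 1 and under both rescalings, and that of Eif3j1 also without P0 replicate 1. The 4 subunits that were not called were the most abundant ones besides Eif3i: Eif3f (0.043), Eif3e (0.011), Eif3h (-0.080) and Eif3k (-0.19). Eif3k was called lower without either E17 library (adjusted p 0.0146 and 0.0148). Eif3f, for example, had 322 and 335 TPM at E12.5, 344 and 319.7 at E14, 371 and 332 at E15.5, 349 and 428 at E17 and 355 and 322 at P0, with E12.5 and P0 overlapping. At E12.5 the subunits ranged from 22.8 TPM (Eif3j2) to 328 TPM (Eif3f). Eif3a stood at 107 TPM and fell to 54.7. Under median-of-ratios scaling 6 subunits were lower and 1 higher (Eif3f, 0.32, adjusted p 0.0394), with a median of -0.25; under quantile normalization 8 were lower. By step, 2 of the 14 subunits were called lower from E14 to E15.5 (median -0.15), beside 33.3% of all genes. From E15.5 to E17, 6 of the 14 were (median -0.25), beside 10.6% of all genes. Not all of these 6 calls held when either E15.5 library was left out, and no share of all genes was counted there. At the first and the last step 0 were called lower (medians -0.081 and -0.0025), beside 4.78% and 28.8% of all genes. Without E17 replicate 1, Eif3k and Eif3l lost their call from E15.5 to E17 (adjusted p 0.0676 and 0.151). 43.3% of the exonic bases of Eif3d overlap exons of genes on the other strand, and the sources used here do not say whether the counting used strand.

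**Figure D2:**
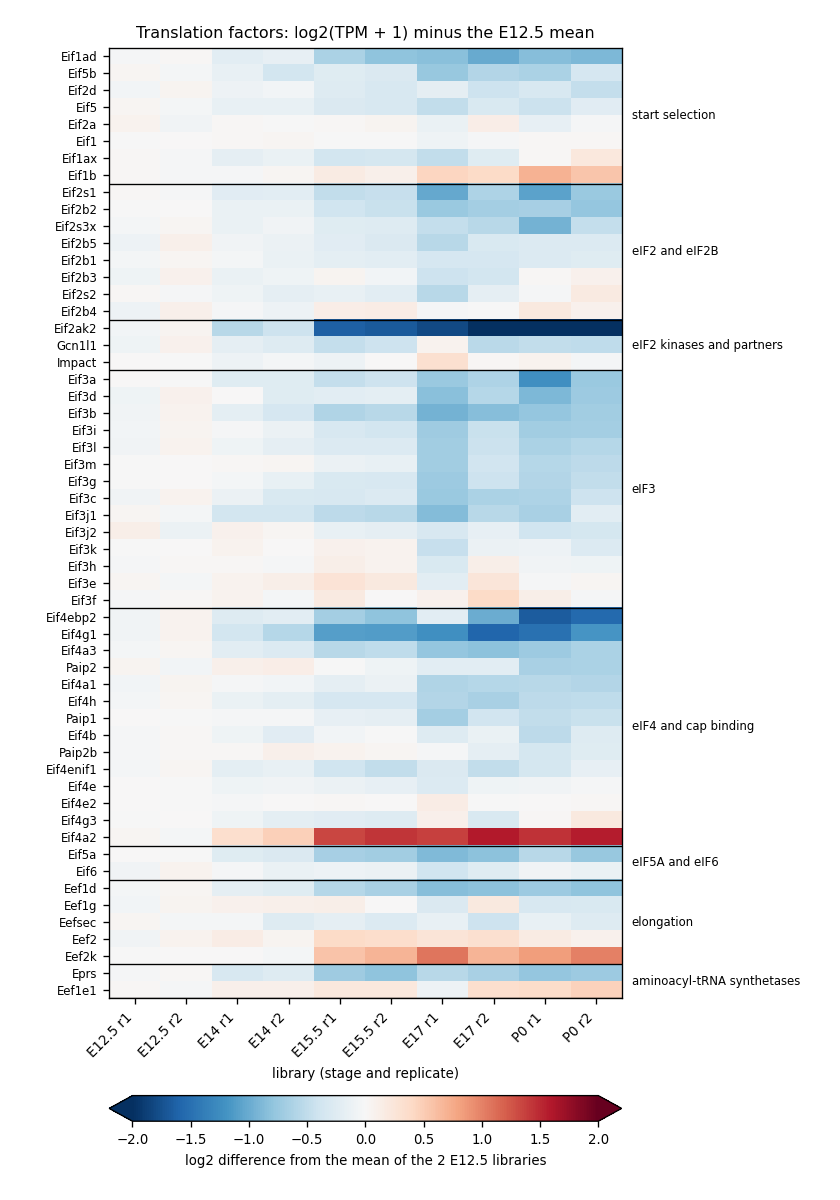
log2(TPM + 1) of 56 members with a role in initiation, elongation or tRNA charging (rows, grouped by role and ordered by their change) in each of the 10 libraries (columns), minus the mean of the 2 E12.5 libraries; red is higher, blue is lower, and the colour scale saturates at its ends. Eif4a2 (1.51 at P0) is red from E14 on and Eef2k (0.92) from E15.5 on, while most rows turn blue.

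The cap-binding complex eIF4F brings the small subunit to the mRNA and consists of the cap-binding protein eIF4E, the scaffold eIF4G and the helicase eIF4A. Of the 14 members of the eIF4 and cap-binding group, 10 were lower at P0, 1 was higher and 3 were not called (median -0.43). The transcript levels of the 2 helicase genes moved apart. Eif4a2 had 242 and 229 TPM at E12.5, 298 and 329 at E14, 595 and 633 at E15.5, 609 and 709 at E17 and 645 and 698 at P0, a rise of 2.85 times in TPM and of 1.51 (SE 0.09, adjusted p 3.59e-08), the largest rise of all members. Eif4a1, its close relative, had 938 and 1014 TPM at E12.5, 963 and 936 at E14, 858 and 902 at E15.5, 639 and 658 at E17 and 663 and 648 at P0 and fell by 0.57 (SE 0.08, adjusted p 3.62e-05). The called steps of the 2 genes differed. Eif4a2 was called higher from E12.5 to E14 (0.41, adjusted p 0.0214) and above all from E14 to E15.5 (0.97, adjusted p 7.21e-06). The call from E12.5 to E14 was lost without either E12.5 library and without E14 replicate 2. The called fall of Eif4a1 came from E15.5 to E17 (-0.44, adjusted p 0.0029). Both E15.5 libraries of Eif4a1 (858 and 902 TPM) already lay below its earlier ones. The ratio of Eif4a2 to Eif4a1 was 0.258 and 0.225 at E12.5, 0.310 and 0.351 at E14, 0.694 and 0.702 at E15.5, 0.953 and 1.08 at E17 and 0.974 and 1.08 at P0. Eif4a1 was the more abundant transcript in all libraries up to E15.5, and neither was so in both libraries of E17 or of P0. The log2 ratio differed by 2.08 between P0 and E12.5. The exact permutation test over all stages gave p = 0.00317, adjusted 0.00705. The level of Eif4a1 is uncertain, because 65.3% of the 50-base words of Eif4a1 transcripts also occur in other genes' transcripts, 64.9% in the processed pseudogene Eif4a-ps4, against 9.23% for Eif4a2. Eif4a1 lies on chromosome 11 from 69666936 to 69672423 on the minus strand and Eif4a2 on chromosome 16 from 23107444 to 23114136 on the plus strand in GRCm38. Neuronal marker sums were higher and progenitor sums lower at P0 than at E12.5, as given above; their part in this ratio was not tested.

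The scaffold genes shifted as well. Eif4g1 had 76.3 and 84.7 TPM at E12.5, 61.8 and 53.8 at E14, 37.00 and 36.4 at E15.5, 33.7 and 25.98 at E17 and 27.9 and 34.9 at P0, a difference of -1.34 (SE 0.14, adjusted p 2.84e-06), with a called step from E14 to E15.5 (-0.64). Eif4g3, the third scaffold gene, stayed between 25.3 and 36.4 TPM (0.11, adjusted p 0.43), and was called higher under both rescalings (0.38 and 0.38). The ratio of Eif4g3 to Eif4g1 was 0.411 and 0.374 at E12.5, 0.481 and 0.510 at E14, 0.722 and 0.721 at E15.5, 1.01 and 0.976 at E17 and 1.15 and 1.04 at P0. Both libraries of each stage lay above both of the stage before it, and the exact permutation test gave p = 0.00106, adjusted 0.00529; the unadjusted p is the smallest this test can give. The cap-binding protein genes were not called: Eif4e stood at 326 and 322 TPM at E12.5 and 309 and 318 at P0 (-0.048, adjusted p 0.581), and Eif4e2, a cap-binding relative that represses translation, at 128 and 127 and 128 and 130.0 (0.020, adjusted p 0.817, and 0.29, called, with median-of-ratios scaling). Their log2 ratio differed by 0.068 between P0 and E12.5, and the exact permutation test over all stages gave p = 0.23, adjusted 0.23. E17 replicate 1 stood apart with a ratio of 0.529 against 0.414 in E17 replicate 2. With replicate 1 of that stage left out, the exact permutation p of the ratio was 0.0148, and with replicate 2 left out 0.00317.

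**Figure D3:**
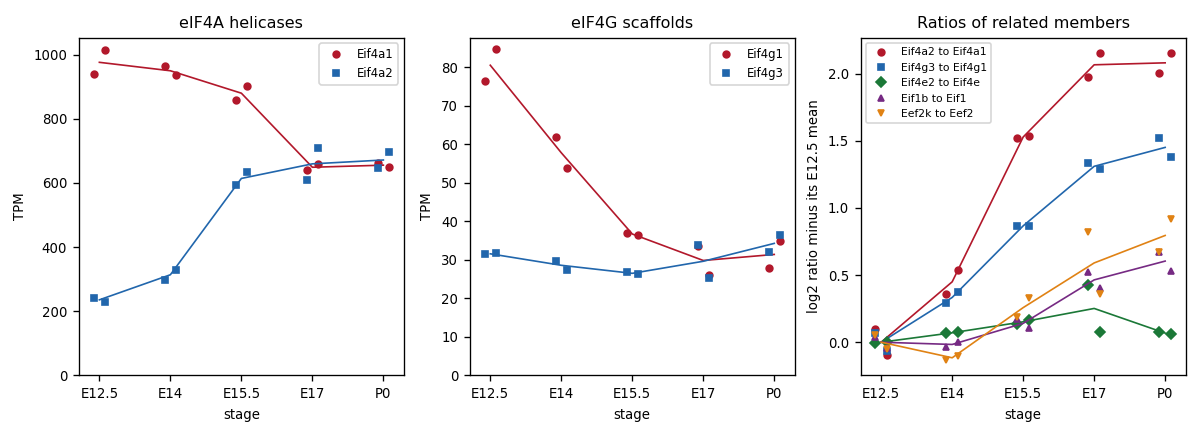
Left and middle, TPM (y axis) of the helicase genes Eif4a1 and Eif4a2 and of the scaffold genes Eif4g1 and Eif4g3 by stage (x axis); points are single libraries and lines join stage means. Right, log2 ratio of 5 pairs of members within each library minus its E12.5 mean; the Eif4a2 to Eif4a1 ratio ends 2.08 and the Eif4g3 to Eif4g1 ratio 1.45 above its start, while the Eif4e2 to Eif4e ratio ends at 0.068.

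Eif4ebp2, a repressor that binds eIF4E until growth signals phosphorylate it, fell most within this group. It had 467 and 509.6 TPM at E12.5, 406 and 423 at E14, 304 and 279.5 at E15.5, 419 and 244 at E17 and 153 and 165 at P0, a difference of -1.61 (SE 0.18, adjusted p 6.94e-06). The E17 libraries lay on both sides of those of E15.5, and the fall from E17 to P0 was -1.01 with both and -0.62 without E17 replicate 1 (adjusted p 2.52e-05). Eif4enif1, which carries eIF4E into the nucleus and into processing bodies, was at -0.26 (adjusted p 0.0392), a call lost under both rescalings and without any one of 7 of the 10 libraries. Eif4h and Eif4b, which stimulate the helicase, were lower by 0.51 and 0.39, and Eif4a3, the helicase of the exon junction complex, by 0.68. Of the regulators of the poly(A)-binding protein, the stimulator Paip1 was lower by 0.47, and the inhibitors Paip2 and Paip2b by 0.64 and 0.30. Eif4b, Paip1 and Paip2b were not called with median-of-ratios scaling, nor Paip2b without E12.5 replicate 2. Paip2 had 667 and 613 TPM at E12.5, 689 and 703 at E14, 633 and 606 at E15.5, 555 and 551 at E17 and 409 and 414 at P0. Its largest fall between neighbouring stages was from E17 to P0 (-0.43, adjusted p 0.00131), and both E17 libraries already lay below all earlier ones.

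Eif5a, which frees ribosomes stalled on difficult peptide stretches and carries the modified amino acid hypusine, was the most abundant member at E12.5. It had 1894 and 1857 TPM at E12.5, 1577 and 1532 at E14, 1183 and 1152 at E15.5, 1014 and 1059 at E17 and 1277 and 1103 at P0, a difference of -0.66 (SE 0.09, adjusted p 4.34e-05). It fell from E14 to E15.5 (-0.41, adjusted p 0.00314), and Eef2 had overtaken it from E15.5 on. Eif6, which keeps the subunits apart, was at -0.10 (adjusted p 0.283).

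In elongation, the factor and the kinase that inhibits it were compared. Eef2 had 1286 and 1403 TPM at E12.5, 1484 and 1396 at E14, 1749 and 1708 at E15.5, 1601 and 1676 at E17 and 1502 and 1429.9 at P0. It rose from E14 to E15.5 (0.26, adjusted p 0.029) and stood at P0 0.13 above E12.5, which was not called (adjusted p 0.218) except with median-of-ratios scaling (0.40). Eef2k, the kinase that phosphorylates and stops eEF2, had 23.5 and 23.9 TPM at E12.5, 23.9 and 22.9 at E14, 35.6 and 38.4 at E15.5, 50.9 and 38.6 at E17 and 42.9 and 48.8 at P0, a difference of 0.92 (SE 0.12, adjusted p 3.10e-05), or 1.93 times in TPM. All libraries from E15.5 on lay above those of E12.5 and E14. The log2 ratio of Eef2k to Eef2 differed by 0.80 between P0 and E12.5. The exact permutation test over all stages gave p = 0.0159, adjusted 0.0198. Without E14 replicate 1, E14 replicate 2 or P0 replicate 2 the exact permutation test missed 0.05 (p = 0.055, 0.0529 and 0.0519). Of the exchange factor for eEF1A, Eef1d fell (-0.76, SE 0.08, adjusted p 2.34e-06), with 101.1 and 108 TPM at E12.5, 92.1 and 88.1 at E14, 69.8 and 66.6 at E15.5, 57.1 and 58.6 at E17 and 62.7 and 59.5 at P0. Eef1g was at -0.31 (adjusted p 0.0416), a call lost without any one library except those of E17 and under median-of-ratios scaling, and 64.3% of its 50-base words occur in other genes' transcripts. Eefsec, the elongation factor for selenocysteine, was at -0.20 (adjusted p 0.155). Eprs, which charges tRNAs with glutamate and proline, fell (-0.75, SE 0.09, adjusted p 9.77e-06), whereas Eef1e1, a scaffold protein of the synthetase complex, rose (0.41, SE 0.12, adjusted p 0.00644), a call lost without P0 replicate 2 (adjusted p 0.0533).

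The other 61 members, all from the authors' category, regulate or process mRNAs or signal to the machinery. Of the 60 tested, 46 were lower at P0, 5 higher and 9 not called, with a median of -0.61. They are described below in families that were drawn up by known function after the values had been seen.

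The 3 Igf2bp genes encode RNA-binding proteins that protect and localise growth-related mRNAs and are known from fetal tissue. Igf2bp1 had 94.99 and 92.97 TPM at E12.5, 66.6 and 66.3 at E14, 27.8 and 26.3 at E15.5, 29.2 and 18.1 at E17 and 7.07 and 6.03 at P0, a fall of 93.0% and a difference of -3.66 (SE 0.17, adjusted p 2.81e-09). Igf2bp2 had 105 and 107 TPM at E12.5, 76.97 and 72.5 at E14, 26.6 and 21.1 at E15.5, 19.9 and 13.4 at E17 and 8.47 and 7.76 at P0 (-3.55, SE 0.16, adjusted p 2.10e-09), and Igf2bp3 had 67.3 and 66.6 TPM at E12.5, 52.9 and 51.8 at E14, 33.6 and 28.4 at E15.5, 23.8 and 23.1 at E17 and 9.91 and 11.9 at P0 (-2.52, SE 0.11, adjusted p 1.75e-09). All 3 fell from E14 to E15.5 and again from E17 to P0, and their P0 libraries lay below every earlier library. Tyms, thymidylate synthase, which makes a DNA precursor and binds its own mRNA, changed about as much (-3.57, SE 0.08, adjusted p 2.77e-11), with 106 and 107 TPM at E12.5, 73.3 and 74.01 at E14, 32.3 and 30.7 at E15.5, 17.4 and 18.2 at E17 and 7.86 and 8.25 at P0. It was called lower at each of the 4 steps. Its difference was -3.31 with median-of-ratios scaling and -3.21 with quantile normalization.

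MicroRNA silencing genes were lower in 4 of 5 cases (median -1.01). Ago1, an Argonaute protein that holds microRNAs, had 314 and 331 TPM at E12.5, 282 and 281 at E14, 199 and 197 at E15.5, 233 and 141 at E17 and 102 and 109 at P0 (-1.60, SE 0.17, adjusted p 3.59e-06), and Ago2, the Argonaute that can cut its target, had 112 and 114 TPM at E12.5, 82.3 and 89.2 at E14, 53.2 and 53.1 at E15.5, 79.1 and 44.1 at E17 and 35.8 and 43.3 at P0 (-1.50, SE 0.20, adjusted p 2.65e-05). Tnrc6b and Tnrc6a, scaffolds that link Argonaute to deadenylation, were lower by 1.01 and 0.70. Tnrc6b had 25.8 and 25.9 TPM at E12.5, 22.8 and 24.9 at E14, 23.8 and 22.9 at E15.5, 36.6 and 19.2 at E17 and 10.7 and 14.2 at P0; E17 replicate 1 was the highest library of the series, and the fall from E17 to P0 was -1.05 with it and -0.60 without it (adjusted p 0.00128). Ago2 lost its call for that step without E17 replicate 1 (-0.16, adjusted p 0.22), against -0.57 with both libraries and -0.99 without E17 replicate 2. Tarbp2, a partner of Dicer, was at -0.079 (adjusted p 0.57).

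The CCR4-NOT complex removes poly(A) tails. Of its 8 subunits among the members 6 were lower (median -0.51). Cnot1, the scaffold, had 42.9 and 45.7 TPM at E12.5, 34.2 and 36.4 at E14, 22.6 and 22.5 at E15.5, 27.1 and 18.4 at E17 and 14.5 and 17.8 at P0 (-1.41, SE 0.16, adjusted p 5.49e-06). Cnot3, Cnot11, Cnot6l, Cnot2 and Cnot10 were lower by between 0.45 and 0.93; Cnot10 was not called under either rescaling. The deadenylase Cnot7 (-0.11) and its relative Cnot8 (-0.033) were not called on TPM as deposited, and Cnot8 was called higher with median-of-ratios scaling (0.24, adjusted p 0.00955). Without E17 replicate 1, the steps from E17 to P0 of Cnot1, Cnot2, Cnot3 and Cnot6l were no longer called (adjusted p between 0.0536 and 0.283).

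**Figure D4:**
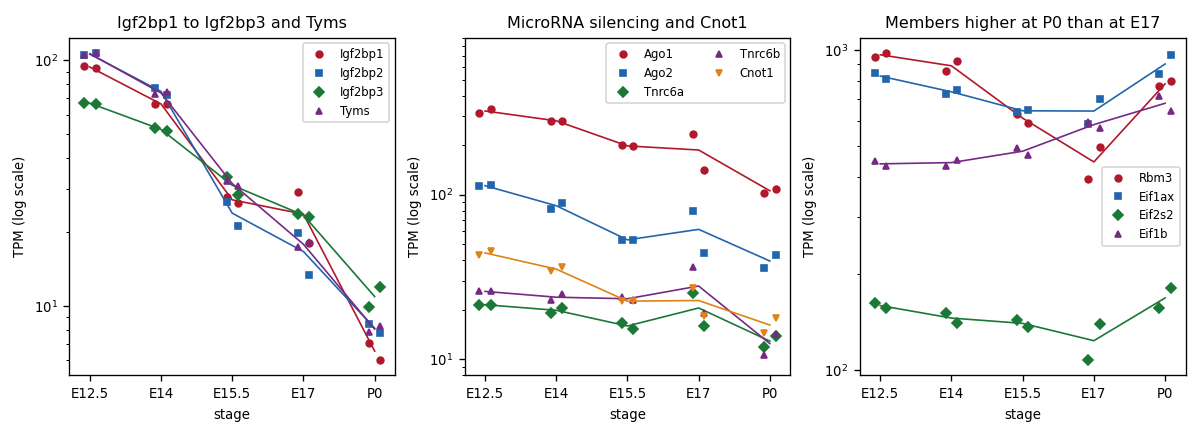
TPM on a log scale (y axis) by stage (x axis); points are single libraries and lines join stage means. Left, Igf2bp1, Igf2bp2, Igf2bp3 and Tyms, which end between 6.55 and 10.9 TPM at P0; middle, Argonaute and Tnrc6 genes and Cnot1, in which the 2 E17 libraries stand apart; right, Rbm3, Eif1ax, Eif2s2 and Eif1b, whose P0 libraries lie above those of E17.

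Fmr1, the gene of the fragile X protein that represses synaptic mRNAs, was lower by 0.45 (adjusted p 0.00124, not called with median-of-ratios scaling), its relative Fxr2 by 0.57 and its partner Cyfip1 by 0.64. Fxr1, the other relative, fell furthest of the family, with 72.2 and 68.8 TPM at E12.5, 67.6 and 66.5 at E14, 51.4 and 53.8 at E15.5, 36.6 and 40.6 at E17 and 26.2 and 30.99 at P0 (-1.28, SE 0.10, adjusted p 2.09e-07), and its P0 libraries lay below all others. Among nuclear factors, all 7 of the cap-binding proteins Ncbp1 and Ncbp2, the exon junction proteins Magoh, Casc3 and Eif4a3 and the export-linked Poldip3 and Sarnp were lower, by between 0.47 (Ncbp2) and 0.98 (Ncbp1), and 7 of 7 were lower under quantile normalization and 6 of 7 under median-of-ratios scaling. Of 6 growth signalling genes, 1 was lower, 1 higher and 4 were not called (median -0.23). Akt2 fell (-0.77, SE 0.09, adjusted p 7.67e-06) while Akt1, the related kinase, was higher by 0.21 (adjusted p 0.0309), a call lost under quantile normalization and without either E15.5 library, without E12.5 replicate 1 and without P0 replicate 1. The S6 kinase gene Rps6kb1 (-0.22), the TOP mRNA-binding protein gene Larp1 (-0.25), its relative Larp4b (-0.20) and Tsc1 (-0.25), a brake on the mTOR kinase, were not called. With either E17 library left out, each of these 4 was called lower (adjusted p between 0.00255 and 0.0258 without E17 replicate 1).

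Of 13 further repressors and RNA-binding proteins, 10 were lower and 3 higher (median -0.55). Cpeb4, which acts on mRNAs through their poly(A) tails in neurons, rose, with 33.5 and 30.6 TPM at E12.5, 41.2 and 49.3 at E14, 73.2 and 72.2 at E15.5, 76.7 and 71.2 at E17 and 64.7 and 74.7 at P0 (1.10, SE 0.11, adjusted p 1.73e-06). Its libraries from E15.5 on lay above all earlier ones. Ddx25, an RNA helicase, rose as well, with 23.9 and 23.8 TPM at E12.5, 27.1 and 27.5 at E14, 35.9 and 35.96 at E15.5, 32.5 and 40.8 at E17 and 51.7 and 49.8 at P0 (1.06, SE 0.11, adjusted p 2.38e-06), and Lsm14b, a processing-body protein, by 0.26 (adjusted p 0.00931, and 0.0672 without E12.5 replicate 1), whereas its relative Lsm14a fell, with 148 and 146 TPM at E12.5, 135 and 133 at E14, 92.9 and 94.4 at E15.5, 82.8 and 78.6 at E17 and 56.3 and 62.9 at P0 (-1.29, SE 0.08, adjusted p 2.56e-08). Rbm3, a cold-inducible RNA-binding protein, had a valley: 952 and 977 TPM at E12.5, 860.4 and 922 at E14, 631 and 592 at E15.5, 396 and 497 at E17 and 769 and 796 at P0. Rbm3 fell from E14 to E15.5 (-0.54) and from E15.5 to E17 (-0.46, or -0.30 without E17 replicate 1 and -0.62 without the other) and rose from E17 to P0 (0.82, SE 0.10, adjusted p 0.000174), the largest rise of that step; P0 remained 0.30 below E12.5, a call lost under median-of-ratios scaling and with each of the E12.5 and P0 libraries left out in turn. The mRNA repressor Pum2, the iron-sensing mRNA binders Aco1 and Ireb2, and Unk, Rbm4b, Dhx36 and Gemin5 were lower by between 0.54 (Pum2) and 0.996 (Gemin5).

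The genes Nck1 and Nck2, which encode related signalling adaptors, parted: Nck1 had 23.3 and 24.2 TPM at E12.5, 20.7 and 19.2 at E14, 9.84 and 9.58 at E15.5, 6.46 and 6.70 at E17 and 6.72 and 7.52 at P0 (-1.61, SE 0.10, adjusted p 4.77e-08) and Nck2 had 48.6 and 52.7 TPM at E12.5, 61.6 and 55.8 at E14, 82.5 and 85.5 at E15.5, 78.2 and 73.1 at E17 and 88.2 and 89.9 at P0 (0.80, SE 0.08, adjusted p 3.15e-06). Tcof1, a nucleolar protein needed for ribosomal RNA synthesis, fell (-1.22, SE 0.17, adjusted p 4.19e-05). App, the amyloid precursor gene, had 119.7 and 115 TPM at E15.5 and 200.3 and 148 at E17, the largest called rise of that step (0.55, SE 0.12, adjusted p 0.00883); it was 0.33 without E17 replicate 1 and 0.76 without the other. Taco1 and Ptcd3, which serve translation in mitochondria, were lower by 0.93 and 0.62, and Ngdn, Mif4gd, Stk4, Ppp1ca, Nolc1 and Klhl25 by between 0.36 (Klhl25) and 0.88 (Ngdn). The call of Nolc1 was lost with median-of-ratios scaling, and that of Klhl25 under both rescalings, without E12.5 replicate 2 and without P0 replicate 2. Dapk1, a cell death kinase, was at -0.10 (adjusted p 0.489).

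By step, the fewest members were called from E12.5 to E14 in the fit over all libraries. From E12.5 to E14, Eif4a2 and Cpeb4 were higher and Tyms lower, 3 of 116 members; the count lower (1 member, 0.862%, beside 4.78% of all genes) was 0 when a library of E12.5 or E14 was left out, 21 (beside 18.3% of all genes) without E17 replicate 1 or without E17 replicate 2, and 2 without either P0 library. The count higher (2 members, 1.72%, beside 3.95%) was 0 without either E12.5 library or E14 replicate 2, and 1 without E14 replicate 1. With median-of-ratios scaling 4 were lower and 3 higher, beside 5.01% and 7.14%, and with quantile normalization 6 and 3, beside 7.08% and 7.69%. From E14 to E15.5, 35 were lower (30.2%, beside 33.3% of all genes) and 7 higher (6.03%, beside 18.4%). The count lower was 22 without either E14 library, 21 and 23 without the first and the second E15.5 library, and 58 without either E17 library, beside 43% of all genes without replicate 1 and 42.9% without replicate 2; the count higher was 4 without E15.5 replicate 2. From E15.5 to E17, 28 were lower (24.1%, beside 10.6%) and 3 higher (2.59%, beside 14.4%); the medians were -0.14 for the members and 0.01 for all genes. With either E15.5 library left out, which leaves 1 library at that stage, few members were called at this step. Shares of all genes were not counted for those fits, so a loss particular to the members cannot be told from a general one. The count higher was 1 with a library of E12.5 or E14 left out. Without E17 replicate 1, 37 were lower and 4 higher, beside 17.5% and 12.2% of all genes, and 22 of the 28 kept their call; without E17 replicate 2, 40 were lower and 15 higher, beside 17.3% and 35%, and 27 of the 28 kept it. From E17 to P0, 28 were lower (24.1%, beside 28.8%) and 8 higher (6.9%, beside 12.9%). Without E17 replicate 1, 28 were lower, 19 of them the same genes, and 9 higher, beside 24.7% and 17.5% of all genes; without E17 replicate 2, 43 were lower and 17 higher, beside 44.9% and 17.4%. The count lower was 14 without P0 replicate 1, and the count higher 5 without any one library of E12.5, E14 or E15.5. With quantile normalization 20 were lower and 14 higher, beside 19.8% and 20.7%. Under median-of-ratios scaling the step from E17 to P0 gave 22 lower and 18 higher, beside 22.6% and 21.4%, and that from E14 to E15.5 25 lower and 13 higher, beside 25.7% and 26.1%; that from E15.5 to E17 gave 30 lower and 2 higher, beside 12.4% and 16.6%.

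Genes of the same pathway that are not members were counted from a list of translation control genes and cytosolic tRNA synthetases. Of 64 that were in the table and tested, 39 were lower at P0, 10 higher and 15 not called, with a median of -0.39, beside 51% of all genes lower, 27.1% higher and a median of -0.27. Of 43 control genes 29 were lower and 6 higher, and of 21 synthetases and synthetase partners 10 were lower and 4 higher. The lowest values were those of Dph6 (-1.63), which helps to make the diphthamide residue of eEF2, G3bp1 (-1.42), a stress granule protein, and Larp4 (-1.41), which binds poly(A). The highest were Stau2 (1.14), which carries mRNAs into dendrites, Dhps (0.90), the enzyme that starts hypusine formation on eIF5A, and Cyfip2 (0.84), the relative of Cyfip1. Each of these 6 kept its sign under both rescalings.

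For 18 of the 117 members, over 10% of the 50-base words of their protein-coding transcripts in GENCODE M21 also occur in transcripts of other genes, and for 5 of them (Eef1g, Eif3j2, Eif4a1, Mapkapk5 and Sarnp) over 50%; the sources used here do not say how such reads were counted. Exons on the other strand overlap over 10% of the exonic bases of 12 members, Eif1ad, Eif1b and Igf2bp3 among them.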

How the data were processed

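Stranded libraries of polyadenylated RNA from cleared neocortex lysates had been made with the TruSeq Stranded mRNA kit, per the labels' protocols. The submitters' processing notes name STAR, Subread and GRCm38.p5; the sources used here do not give versions, settings, annotation or gene lengths. The authors deposited TPM for 6147 genes, which hold between 68.9% and 71.7% of a library's whole TPM, so depth in reads is unknown and no count model was used. The precision is limited by 2 libraries per stage. The p-values of limma set a difference against a spread that was estimated over all stages together, the E17 pair included, and moderated over all genes.

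Stages came from the labels, columns were matched to libraries by name, and 0 columns had no sample. Genes with a mean under 1 TPM were left out (99), and log2(TPM + 1) of the other 6048 was fitted with limma (version 3.58.1, R version 4.3.3) on all 10 libraries, each stage having its own mean (5 residual degrees of freedom, a variance trend) and Benjamini-Hochberg adjustment over all genes; adjusted p under 0.05 was called. Ratios of related members were tested for any difference among the 5 stages by an exact permutation test over 945 pairings. Of 11 ratios listed, 5 had both genes among the members. Both were tested on simulated data. Tried as alternatives were a pseudocount of 0.1 or 10 TPM, a minimum of 5 TPM or none, median-of-ratios and quantile rescaling, the replicate number as a block, only the libraries of the 2 stages compared, and leaving out each library.

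The members, role groups and lists were chosen with earlier results of these data known. By rule, genes named were the members of role groups of up to 15 genes, those called with a log2 change of at least 1, the 5 most abundant, genes of listed ratios, the 3 highest and lowest of the largest group, the leaders of each step, and the 3 highest and lowest called pathway genes; others were named after their values were seen. The values of 1 member are not reported here. Positions, overlaps and shared 50-base words used GENCODE M21 (GRCm38), which may differ from the authors' annotation. Tables and figures were made in Python 3.11.15 with pandas 2.3.3 and numpy 2.4.6.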

Additional observations from a re-analysis of the deposited data

How the results depend on the processing

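Counts of called members moved most with the libraries in the fit. Shares of all genes were counted only for the main fit, both rescalings and the fits without an E17 library. The other counts below cannot be set against such shares. With only the libraries of the 2 stages compared, 5 members were higher and 41 lower from E12.5 to E14, 17 higher and 67 lower from E14 to E15.5, 0 higher and 1 lower from E15.5 to E17, and 3 higher and 11 lower from E17 to P0. Median-of-ratios scaling gave 21 higher from E12.5 to P0, 13 higher from E14 to E15.5, 18 higher from E17 to P0 and 4 lower from E12.5 to E14; quantile normalization gave 13 higher from E14 to E15.5, 14 higher from E17 to P0 and 6 lower from E12.5 to E14, and a pseudocount of 10 TPM gave 7 lower there. With the replicate number as a block (replicate block), 2 members were lower from E12.5 to E14; the other counts stayed within 1.5 times, and of the changes from E12.5 to P0 only Eif4enif1 lost its call (adjusted p 0.0549). The numbers are not known to pair the libraries: deviations of same-numbered libraries correlated between -0.37 and 0.11 over 10 pairs of stages. Leaving out each library in turn gave 0 to 3 higher and 0 to 21 lower from E12.5 to E14; 4 to 10 higher and 21 to 58 lower from E14 to E15.5; 0 to 15 higher and 3 to 40 lower from E15.5 to E17; 5 to 17 higher and 14 to 43 lower from E17 to P0; 7 to 9 higher and 73 to 86 lower from E12.5 to P0, and 88 to 107 in the F test. For the ratios, leaving out each library gave differences of 0.059 to 0.077 (Eif4e2 to Eif4e) and 0.67 to 0.92 (Eef2k to Eef2); the 5 tests kept their side of 0.05 under both pseudocounts.

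Of the 116 single changes from E12.5 to P0, 16 turned their sign under median-of-ratios scaling, 14 of them not past the threshold on TPM as deposited: Eif2a 0.18, Eif2b1 0.013, Eif3h 0.20, Eif3k 0.088, Eif4e 0.23, Eif4enif1 0.011, Eif6 0.17, Eefsec 0.056, Cnot7 0.16, Cnot8 0.24, Dapk1 0.17, Larp1 0.017, Larp4b 0.068, Rps6kb1 0.051, Tarbp2 0.19 and Tsc1 0.020. Under quantile normalization 7 did so: Eif2a 0.15, Eif4enif1 0.0046, Eefsec 0.21, Cnot8 0.059, Dapk1 0.16, Tarbp2 0.21 and Tsc1 0.032. Without single libraries the range was -0.038 to 0.14 for Eif2b3, -0.028 to 0.18 for Eif2s2, -0.042 to 0.063 for Impact, -0.032 to 0.054 for Eif3e, -0.025 to 0.11 for Eif3f, -0.070 to 0.0035 for Cnot8 and -0.22 to 0.066 for Tarbp2. The cause was not tested.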
